A study of Homo sapiens with 2 samples.

Results

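The genes described here coat the lipid droplet or release fat from it: the 5 perilipins (PLIN1, PLIN2, PLIN3, PLIN4 and PLIN5), the lipases PNPLA2 and LIPE, the lipase activator ABHD5, and the lipase inhibitors G0S2 and HILPDA. They are 10 of the 41582 gene symbols in the expression table, listed by their role, and the topic was proposed with the values of this same comparison in view. Differences between the conditions are therefore given as a description, with no test. RNA was sequenced from U87, an established human glioblastoma cell line labelled as wild type. The cells were grown in RPMI medium with 10% fetal bovine serum and received either CCA-1.1, a curcumin analog, or its vehicle DMSO for 72 h. The dose of CCA-1.1 in the sequenced culture is not given in the sources used here. There was 1 library per condition, so no value has a replicate check and a difference between the 2 cultures cannot be told apart from an effect of CCA-1.1.

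A lipid droplet is a core of triacylglycerol and cholesteryl ester under a single layer of phospholipid, with perilipins on its surface. PNPLA2, also called adipose triglyceride lipase (ATGL), removes the first fatty acid from triacylglycerol, and LIPE, hormone-sensitive lipase, acts on the diacylglycerol that remains. ABHD5 activates PNPLA2, whereas G0S2 and HILPDA bind PNPLA2 and inhibit it. Glioblastoma cells are known to store fatty acids in droplets, and hypoxia is known to favor this storage.

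Of the 10 genes, 1 was higher and 1 was lower by more than 2-fold in the CCA-1.1 library. PLIN2 was at 7.96 TPM under DMSO and 22.36 TPM under CCA-1.1, a ratio of 2.81. G0S2 was at 77.12 TPM under DMSO and 30.87 TPM under CCA-1.1, so the DMSO level was 2.50 times the CCA-1.1 level. The other 8 genes lay between -0.25 and 0.25 on the scale used below, and 7 of these were lower in the CCA-1.1 library. TPM, the unit of the table, scales reads by transcript length and library total, so levels of different genes can be set side by side. A difference is log2(TPM + 1) of the CCA-1.1 library minus that of the DMSO library. It comes out smaller than the log2 ratio where TPM is low, and beyond 1 or -1 it is past 2-fold. By that criterion 2 of the 10 genes were past 2-fold, where 1.53% of all genes were. Of the 6 with a mean of 10 TPM or more it was the same 2, where 1.01% of all genes at that level were. Both shares include noncoding genes. Among protein-coding genes the share was 0.203% from 10 to 100 TPM and 0.267% at 100 TPM or more. Since values of this comparison led to the topic, nothing is read from these counts. The median difference was -0.11 over the 10 genes and 0 over all genes.

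The 250 bases upstream of PLIN2 and of G0S2 are shown because these were the genes past 2-fold. Both are RefSeq sequences of GRCh38.p14, read toward the gene. That of PLIN2 is chr9:19127493-19127742 on the minus strand, and that of G0S2 is chr1:209675162-209675411 on the plus strand. Capitals mark each match, on either strand, to ACGTG and to TATAA, the letters of a TATA box. ACGTG is a form of the core letters of hypoxia response elements. The other form, GCGTG, was not searched and stands unmarked in both windows shown. CACGTG, the E-box bound by basic helix-loop-helix factors, holds ACGTG on both strands and so is marked with it.
PLIN2: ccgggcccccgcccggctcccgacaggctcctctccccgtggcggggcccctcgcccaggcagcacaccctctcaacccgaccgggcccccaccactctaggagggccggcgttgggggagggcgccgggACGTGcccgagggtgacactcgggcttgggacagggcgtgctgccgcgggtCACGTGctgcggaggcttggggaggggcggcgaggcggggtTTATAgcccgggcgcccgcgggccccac
G0S2: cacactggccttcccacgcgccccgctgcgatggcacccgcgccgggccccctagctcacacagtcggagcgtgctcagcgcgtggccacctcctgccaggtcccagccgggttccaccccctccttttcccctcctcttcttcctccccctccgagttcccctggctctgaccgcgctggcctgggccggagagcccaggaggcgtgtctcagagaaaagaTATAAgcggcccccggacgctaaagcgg

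The PLIN2 window holds ACGTG 120 bases before the start and CACGTG 69 bases before it. It also holds TATAA on the opposite strand, with the first base 28 bases before the start. In G0S2, TATAA begins 28 bases before the start and reads in the direction of the gene. The windows had a GC content of 78% for PLIN2 and 69.2% for G0S2, against a median of 58% over 35116 RefSeq windows of the same length. Windows were found for 9 of the 10 genes, 12 windows in all since LIPE has 2 and ABHD5 has 3; HILPDA had none. CACGTG was in the window of PLIN2 and in no other of the 12, and 6.34% of all windows hold it. ACGTG was likewise in that of PLIN2 alone, against 18.5% of all windows. TATAA was in 5 of the 12 windows, from 5 of the 9 genes, against 18.9% of all windows. The single half-site AGGTCA of nuclear receptors was in the window of PNPLA2 alone, against 12.1% of all windows. The direct repeat of AGGTCA with 1 base of any kind between the copies, to which peroxisome proliferator-activated receptors (PPARs) bind, was in none of the 12 and in 0.0171% of all windows. GGGCGG, the letters of a GC box, was in 8 of the 12 windows, from 6 of the 9 genes, against 42.6% of all windows. CCAAT was in 5 of the 12 windows, from 4 of the 9 genes, against 32%. These are matches of letters within 250 bases, not binding sites.

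Between 0.06 TPM and 217.17 TPM, the levels of the 10 genes differed far more from gene to gene than between the libraries. The highest were PNPLA2 and HILPDA, followed in both libraries by PLIN3 and G0S2. PNPLA2 was first under DMSO and HILPDA was first under CCA-1.1. ABHD5 was above PLIN2 under DMSO and below it under CCA-1.1. LIPE, PLIN1, PLIN4 and PLIN5 were each under 1 TPM in both libraries. With 1 library per condition, it is not known which neighbors in this order differ beyond their spread.

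**Figure D1:**
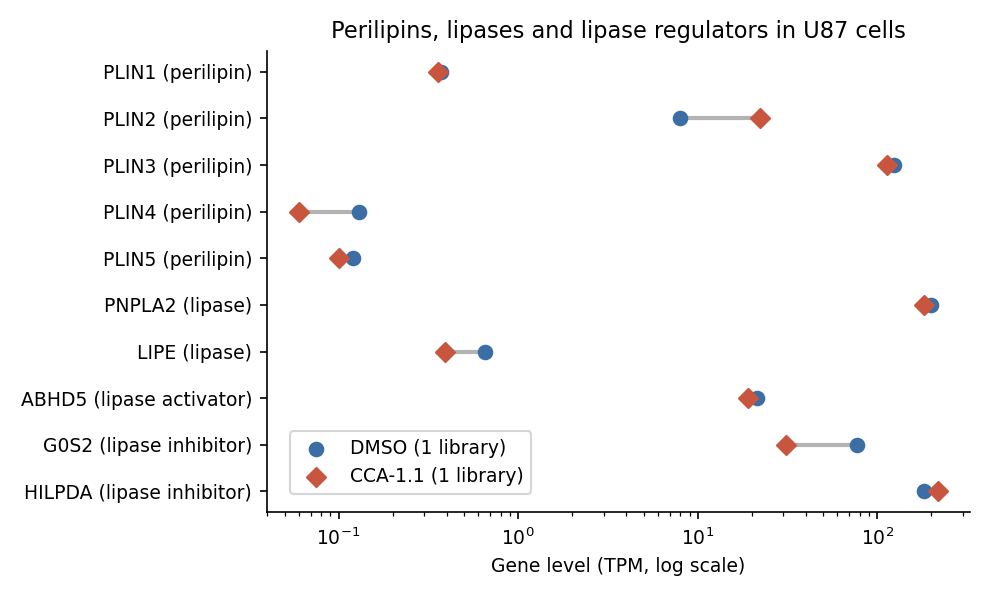
Levels of the 10 genes in TPM on a log scale, with a circle for the DMSO library and a diamond for the CCA-1.1 library. The points of PLIN2 (7.96 and 22.36 TPM) and G0S2 (77.12 and 30.87 TPM) stand apart in opposite directions; PLIN4 and LIPE are also apart, but under 1 TPM.

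Among the perilipins, PLIN2 is the coat protein of droplets in most cell types, and it is degraded when it is not bound to lipid. The PLIN2 gene (Entrez identifier 123) lies at chr9:19108388-19127492 of GRCh38.p14. Its difference was 1.38, and the log2 ratio without a pseudocount was 1.49. Among 6407 protein-coding genes with a mean from 10 to 100 TPM, the 5th and 95th percentiles of the difference were -0.28 and 0.30, and 5 genes were higher by more than 2-fold. The 2 transcripts of PLIN2 that were above 0 were both higher in the CCA-1.1 library. NM_001122.4 was at 3.36 TPM under DMSO and 10.18 TPM under CCA-1.1, a difference of 1.36. The predicted transcript XM_017014259.3 was at 4.60 TPM and 12.18 TPM, a difference of 1.23. Their shares of the gene were 42.2% and 57.8% under DMSO and 45.5% and 54.5% under CCA-1.1. How reads that match both transcripts were divided was not examined, so their separate levels are less certain than the gene level. The noncoding transcript NR_038064.2 was listed at 0 in both libraries.

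PLIN3, which moves between the cytosol and the surface of growing droplets, was the most abundant perilipin. The gene lies at chr19:4838341-4867667. It was at 123.43 TPM under DMSO and 113.29 TPM under CCA-1.1, a difference of -0.12, within the 5th and 95th percentiles of -0.31 and 0.33 among 1499 protein-coding genes of 100 TPM or more. Transcript NM_005817.5 held 96.3% of PLIN3 under DMSO and 96.1% under CCA-1.1. Since Kallisto, the program that made these values, divides reads among transcripts that match them, the sequences of PLIN2 and PLIN3 were compared. Their protein-coding GENCODE transcripts shared 0 stretches of 31 bases, the default word length of Kallisto, among 2447 in PLIN2 and 2876 in PLIN3. Another GENCODE gene, ENSG00000223599, shared 126 of those of PLIN2, and ENSG00000267484 shared 448 of those of PLIN3.

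PLIN1 is the perilipin of fat cells, and its phosphorylation frees ABHD5 to act on PNPLA2. It was at 0.37 TPM under DMSO and 0.36 TPM under CCA-1.1. This level came from NM_002666.5 alone under DMSO and from NM_001145311.2 alone under CCA-1.1, so the value was assigned to different transcripts at a nearly equal gene level. PLIN4, also a protein of fat cells, was at 0.13 TPM under DMSO and 0.06 TPM under CCA-1.1, and 6 of its 9 transcripts were at 0 in both libraries. PLIN5, which links droplets to mitochondria in oxidative tissues, was at 0.12 TPM and 0.10 TPM. PLIN4 and PLIN5 are neighbors on chromosome 19, with 4.05 kb between them, and PLIN3 lies 303.1 kb beyond PLIN5. PLIN1, PLIN4 and PLIN5 are close to the rounding of the table, and no fold is drawn from their values.

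The 5 perilipins together were at 132.0 TPM under DMSO and 136.2 TPM under CCA-1.1, a difference of 0.04. PLIN2 made up 6.03% of this sum under DMSO and 16.4% under CCA-1.1. The share of PLIN3 was 93.5% under DMSO and 83.2% under CCA-1.1. In TPM, PLIN2 differed by 14.40 and PLIN3 by -10.14, so the family sum was close to level while its make-up differed. PLIN3 was 15.5 times as high as PLIN2 under DMSO and 5.07 times as high under CCA-1.1. The share of PLIN2 depends on the TPM assigned to its predicted transcript. With predicted transcripts left out of the sums, it was 2.64% under DMSO and 8.21% under CCA-1.1. Reads were not assigned anew among the curated transcripts.

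Of the lipases, PNPLA2 (chr11:818914-825573) was at 199.73 TPM under DMSO and 181.77 TPM under CCA-1.1, a difference of -0.14. The table lists 1 transcript of it, NM_020376.4. LIPE (chr19:42401514-42427388) was at 0.65 TPM under DMSO and 0.39 TPM under CCA-1.1, spread over 6 transcripts that were each under 1 TPM. The first lipase of the pathway was therefore among the higher genes of the group in both libraries, whereas the one that follows it was near the bottom. LIPE lies opposite the noncoding gene LIPE-AS1, which was at 5.38 TPM and 6.76 TPM, and 415 of the 4882 stretches of 31 bases in LIPE also occur in LIPE-AS1. Whether the counting used strand is not given in the sources used here, so the low level of LIPE is uncertain.

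ABHD5 (chr3:43690870-43734371), the activator of PNPLA2, was at 21.48 TPM under DMSO and 19.06 TPM under CCA-1.1, a difference of -0.16. Of its 9 transcripts, 8 were above 0 in at least 1 library. The coding transcript NM_016006.6 was at 7.42 TPM and 7.41 TPM, and NM_001355186.2 was at 5.82 TPM and 5.86 TPM. The noncoding transcript XR_007095690.1 was at 4.76 TPM under DMSO and 2.36 TPM under CCA-1.1. It differed by -2.40 TPM and the whole gene by -2.42 TPM, while the main coding transcripts were level. With XR_007095690.1 and the other predicted transcripts left out of the sum, the difference of ABHD5 was 0.0035. Its lower level thus lies in the TPM assigned to predicted transcripts, and reads were not assigned anew. ABHD5 overlaps ANO10, which was at 43.98 TPM and 44.59 TPM, and 142 of the 6737 stretches of 31 bases in ABHD5 occur in it. PNPLA2 was 9.30 times as high as ABHD5 under DMSO and 9.54 times as high under CCA-1.1.

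G0S2 (Entrez identifier 50486), first known as a gene of cells that leave the resting state, encodes a small protein that binds the catalytic domain of PNPLA2. It lies at chr1:209675412-209676390, a gene of only 979 bases, and the table lists the single transcript NM_015714.4. The difference was -1.29, which is -46.25 TPM. In the same group of 6407 genes from 10 to 100 TPM, 8 were lower by more than 2-fold. None of its 846 stretches of 31 bases occurred in another GENCODE gene. The noncoding gene HSD11B1-AS1, whose span covers G0S2 on the other strand, was at 4.26 TPM under DMSO and 7.44 TPM under CCA-1.1, the opposite direction. The neighbors LAMB3, with differences of -0.06, and HSD11B1, with -0.05, were level.

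HILPDA (chr7:128455878-128458418), which hypoxia is known to induce, was at 181.92 TPM under DMSO and 217.17 TPM under CCA-1.1, a difference of 0.25. Its transcripts NM_013332.4 and NM_001098786.2 were both higher, at 148.11 TPM and 169.22 TPM for the former and at 33.81 TPM and 47.95 TPM for the latter. The 2 inhibitors of PNPLA2 thus stood in opposite directions, by less than 2-fold in HILPDA. The TPM of HILPDA was 2.36 times that of G0S2 under DMSO and 7.03 times under CCA-1.1. In HILPDA, 358 of 1391 stretches of 31 bases occur in other GENCODE genes, among them 157 in HILPDA-AS1, so its level is less certain than that of G0S2.

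Set against the lipase, the inhibitors also differed. PNPLA2 was 2.59 times as high as G0S2 under DMSO and 5.89 times as high under CCA-1.1. PNPLA2 was above HILPDA under DMSO, and under CCA-1.1 it was 0.837 times HILPDA. With G0S2 and HILPDA summed, at 259.0 TPM under DMSO and 248.0 TPM under CCA-1.1, the ratio of PNPLA2 was 0.771 and 0.733. The sum of both inhibitors thus differed little, with less of it from G0S2 and more from HILPDA. These are ratios of RNA levels, and protein was not measured here.

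**Figure D2:**
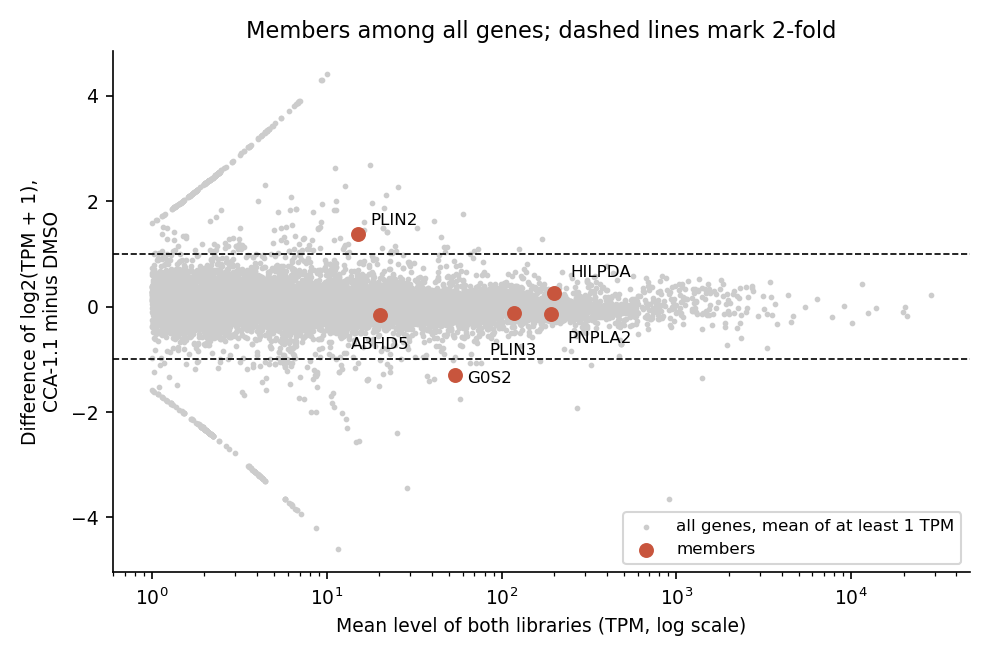
Difference of log2(TPM + 1), CCA-1.1 minus DMSO, against the mean TPM of both libraries on a log scale, for the 15485 genes averaging at least 1 TPM (gray) and the 6 members above that level (red). PLIN2 lies above and G0S2 below the dashed lines at 2-fold, while PLIN3, PNPLA2, ABHD5 and HILPDA lie within the main cloud.

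By transcripts, the 10 genes have 37 entries in the table, of which 8 were at 0 in both libraries and 8 in 1 of them. Past 2-fold were 3 of the 37, where 2.23% of all transcripts were: the pair of PLIN2 transcripts and that of G0S2. Of all 177816 transcripts, 79772 were at 0 in both libraries, which lowers that share. No transcript of PLIN1, PLIN3, PLIN4, PLIN5, PNPLA2, LIPE, ABHD5 or HILPDA was past 2-fold with the pseudocount of 1 TPM.

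Genes around PLIN2 were also higher in the CCA-1.1 library. HAUS6, a subunit of the augmin complex of the mitotic spindle, lies 5.48 kb downstream of PLIN2 on the same strand. It was at 33.41 TPM under DMSO and 53.01 TPM under CCA-1.1, a difference of 0.65. SCARNA8, a small Cajal body RNA within HAUS6, was at 14.77 TPM and 31.92 TPM, a difference of 1.06. Its short span, chr9:19063656-19063786, makes this level less certain, and whether reads of HAUS6 are part of it was not tested. RRAGA, a Rag GTPase of amino acid sensing to mTORC1, lies 57.4 kb away and was at 107.63 TPM and 157.23 TPM, a difference of 0.54. All 3 neighbors within 100 kb averaging at least 1 TPM were thus higher. HAUS6 and RRAGA were beyond the 95th percentile of protein-coding genes from 10 to 100 TPM (0.30) and of those of 100 TPM or more (0.33). SCARNA8 is noncoding, so these percentiles do not cover it, and it is not a separate locus from HAUS6. On the other side, DENND4C, 103.0 kb from PLIN2, was level at 15.17 TPM and 15.99 TPM, at a difference of 0.07. RPS6, a ribosomal protein gene 248.2 kb away, had a difference of 0.37, which is also above the 0.33 of its level. ACER2, 281.5 kb away on that same side, was at 0.06. ADAMTSL1, 197.4 kb from PLIN2 on the side of HAUS6 and RRAGA, was at -0.24. Around the other 9 members, none of the genes averaging at least 1 TPM within 100 kb was past 2-fold. The part of the neighborhood in the higher level of PLIN2 was not tested.

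**Figure D3:**
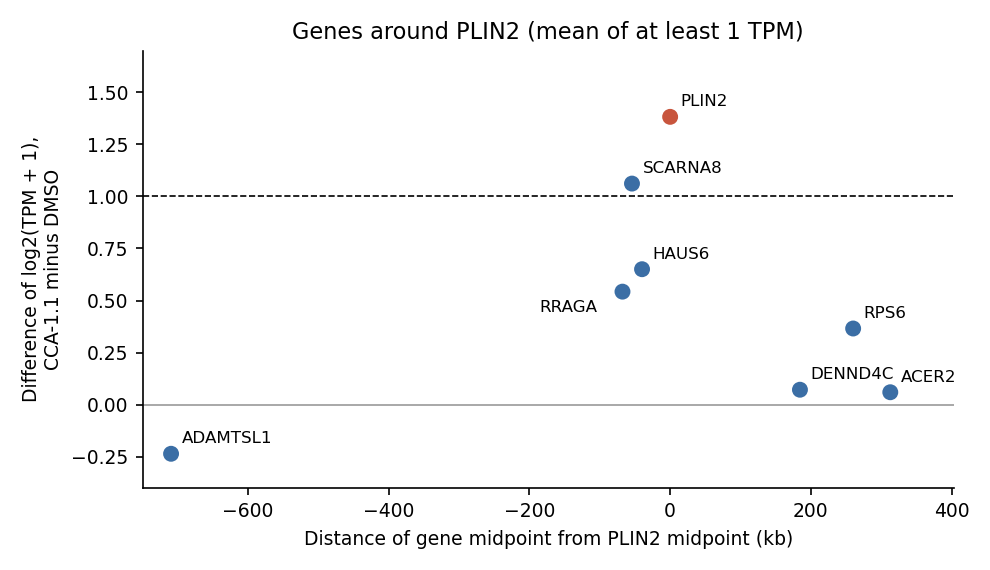
Difference of log2(TPM + 1), CCA-1.1 minus DMSO, of the genes averaging at least 1 TPM around PLIN2, by distance of the gene midpoint from that of PLIN2 in kb. PLIN2 (1.38), SCARNA8 (1.06), HAUS6 (0.65) and RRAGA (0.54) are the highest points. RPS6 (0.37) is also above 0, DENND4C (0.07) and ACER2 (0.06) are near 0, and ADAMTSL1 (-0.24) is below it.

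Other genes of lipid storage were counted in 7 lists with 109 genes, chosen by role, of which 80 had a mean of at least 1 TPM. Past 2-fold was 1 gene, ANGPTL4, where 3.56% of all genes averaging at least 1 TPM were. That share includes noncoding genes. Among protein-coding genes it was 0.58% from 1 to 10 TPM, 0.203% from 10 to 100 TPM and 0.267% at 100 TPM or more. The median difference of the 80 genes was 0.01, against 0.03 over all genes averaging at least 1 TPM. Since values of this comparison led to the topic, this count is not read against the differences of PLIN2 and G0S2.

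ANGPTL4, a secreted inhibitor of lipoprotein lipase and a target of PPARs, was at 1 TPM under DMSO and 7.07 TPM under CCA-1.1, a difference of 2.01. Most of this came from transcript NM_139314.3, at 0.47 TPM and 5.35 TPM, and NM_001039667.3 was at 0.53 TPM and 1.34 TPM. PDK4, a kinase that restrains pyruvate dehydrogenase and another PPAR target, was at 13.73 TPM and 24.96 TPM, a difference of 0.82 that is under 2-fold. Of the PPARs, PPARG, named for the smallest difference in the list, was at 1.06 TPM and 1.08 TPM. PPARA was at 25.15 TPM under DMSO and 26.26 TPM under CCA-1.1, and PPARD was at 15.07 TPM and 13.57 TPM. In this list of PPAR factors and targets, 9 of 16 genes averaging at least 1 TPM were higher and 7 were lower, with a median of 0.03. ANGPTL4 and PDK4 are named because their differences were the largest in the list, so nothing is read from their distance to its median.

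Among genes of droplet formation and coat, none of 17 was past 2-fold and the median of the 12 averaging at least 1 TPM was 0.02. The droplet hydrolase LDAH was at 6.25 TPM under DMSO and 10.75 TPM under CCA-1.1, a difference of 0.70. Seipin (BSCL2), which shapes new droplets, was at 103.0 TPM and 89.94 TPM, and PCYT1A, which makes the phosphatidylcholine of the droplet surface, was at 20.20 TPM and 19.92 TPM. Among genes of neutral lipid synthesis, none of 19 was past 2-fold and the median was -0.0043. The acyltransferase AGPAT5 had a difference of 0.52 and its relative AGPAT1 of -0.24, whereas DGAT1, which completes triacylglycerol, was at 20.64 TPM and 20.78 TPM.

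Among genes of fatty acid uptake and activation, none of 16 was past 2-fold and the median was 0.07. The fatty acid receptor CD36 was at 1.83 TPM under DMSO and 3.62 TPM under CCA-1.1, a difference of 0.71, and the fatty acid binding protein FABP5 was at 4.09 TPM and 6.06 TPM. SLC27A3 was at 10.36 TPM and 10.18 TPM. Of other neutral lipid hydrolases, none of 16 was past 2-fold and the median was -0.10. NCEH1, which cleaves cholesteryl esters, was at 55.87 TPM and 38.18 TPM, a difference of -0.54. DAGLA had a difference of -0.18, and CES1 was at 160.8 TPM and 160.2 TPM.

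Hormones act on lipolysis through protein kinase A. None of 11 genes of this control was past 2-fold, and the catalytic subunits PRKACA and PRKACB had differences of -0.17 and 0.10, while the regulatory subunit PRKAR1A was at 156.6 TPM and 156.1 TPM. For HILPDA, the hypoxia factors and targets are the nearest comparison. None of 12 was past 2-fold, 7 were higher and 5 lower, and the median was 0.09. BNIP3 was the highest of these at 0.27, close to the 0.25 of HILPDA. ADM, which encodes adrenomedullin, was the lowest, at 713.6 TPM under DMSO and 499.1 TPM under CCA-1.1, and HIF1A was at 533.6 TPM and 517.1 TPM.

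The cell type label was checked against markers. Of 9 glial and glioma markers, VIM, CD44 and CHI3L1 were high, from 472.6 to 4947 TPM, and NES, OLIG2 and SOX2 were from 1.45 to 7.62 TPM. S100B was listed at 0 in both libraries, AQP4 was at 0 and 0.02 TPM, and GFAP was at 0.41 and 0.57 TPM, so these defining glial markers were at or near 0. The 5 adipocyte markers (ADIPOQ, LEP, CIDEC, FABP4 and CIDEA) summed to 0.10 TPM under DMSO and 0.47 TPM under CCA-1.1. Of 6 macrophage markers, CD68 was at 494.2 and 397.1 TPM, while AIF1 was listed at 0, and PTPRC, ITGAM, CSF1R and CD163 were from 0.07 to 3.61 TPM. Of 4 neuronal markers, TUBB3 was at 215.9 and 193.7 TPM, SNAP25 at 22.03 and 16.80 TPM, and RBFOX3 and SYN1 from 0.64 to 2.45 TPM. In bulk RNA, fewer cells with a transcript and less of it per cell cannot be told apart. No marker was past 2-fold.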

How the data were processed

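RNA-seq of U87 cells was examined with 1 library for DMSO and 1 for CCA-1.1. The authors enriched mRNA, sequenced it, checked reads with FastQC 0.11.9 and MultiQC 1.1, and quantified human GRCh38.p14 transcripts with Kallisto. The deposited values are TPM per transcript, with 2 decimals and column sums of 999999 and 1000000. TPM keeps no read depth, so depth is unknown and no counting interval or limit for a 0 is given. Bias correction and strand are not given in the sources used here.

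The members and lists were chosen with earlier results of these data known. Of 177816 transcripts, 169966 were matched to RefSeq symbols of GRCh38.p14, ignoring identifier versions where needed (169411 matched with version), including all 37 of the members. TPM was summed per gene, and differences used a pseudocount of 1 TPM with no filter. With 1 library per condition and no counts, no test was run and no p-value is given.

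The text names all members. Of each list it names genes past 2-fold and, among those averaging at least 1 TPM, the 2 with the largest and the 1 with the smallest absolute difference, plus the 3 genes nearest to PLIN2 and all markers. Genes beside members were named after their values were seen, and PPARA and PPARD were added beside PPARG. Promoter windows are RefSeq, and shared 31-base stretches, on either strand, came from GENCODE v44 transcripts lifted to GRCh37, used for letters and not for coordinates. Calculations used Python 3.11.15, numpy 2.4.6 and pandas 2.3.3 and were tested on simulated data.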

Additional observations from a re-analysis of the deposited data

How the results depend on the processing

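PLIN2 and G0S2 stayed past 2-fold, in the same directions, under pseudocounts of 0.1 and 0.01 TPM, minimum means of 1 and 10 TPM, median-ratio scaling (a factor of 0.994), curated transcripts only, and no pseudocount. The last of these and the match by versioned identifier were chosen after seeing the data. Most of the settings could not have changed this outcome. A minimum mean only removes other genes, a smaller pseudocount can only widen a difference, and the single transcript of G0S2 is curated. Without a pseudocount, 3 members were past 2-fold, since PLIN4, at 0.13 and 0.06 TPM, had a log2 ratio of -1.12. The number of list genes past 2-fold was 4 with 0.1 TPM, 14 with 0.01 TPM and 0 with a minimum mean of 10 TPM, which removes ANGPTL4. The number of member transcripts past 2-fold was 8 with 0.1 TPM, 13 with 0.01 TPM and 1 with a minimum mean of 10 TPM. The setting of curated transcripts only drops XM_017014259.3 without assigning its reads anew. Under it, PLIN2 made up 2.64% of perilipin TPM under DMSO and 8.21% under CCA-1.1. Of the recomputed values, 79 moved little, 16 moved (a difference by more than 0.2 or across 2-fold, a share by more than 1 percentage point, a count or ratio by more than 1.5 times). Those 79 include values that the setting could not change. Neither gene past 2-fold changed direction. ABHD5 did, from -0.16 to 0.0035 with curated transcripts only, a change under that limit. No paired analysis was possible because each condition had a single library, which also means that none could be left out.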

Other observations

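The 3 protein-coding genes averaging at least 10 TPM whose difference was nearest to that of PLIN2 were the keratin KRT75 (14.77 TPM under DMSO, 34.18 TPM under CCA-1.1, a difference of 1.16), LOC101929773 (7.55 and 17.19 TPM, 1.09) and ANKRD1, a target of YAP signalling (14.77 and 31.04 TPM, 1.02). Likeness here is the distance between differences over 2 libraries, which was from 0.22 to 0.36, and PLIN2 was the highest of the 4.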
